A study of Mus musculus with 6 samples.

Results

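The genes described here encode the machinery that carries new secretory proteins into the endoplasmic reticulum (ER), cuts off their signal peptides and attaches their N-glycans. Members were chosen by name: the signal recognition particle (SRP) and its receptor, the Sec61 channel with Sec62 and Sec63, the TRAM proteins, the translocon-associated protein (TRAP) complex, signal peptidase and the oligosaccharyltransferase. They were measured by 37 probe sets with a single gene symbol, which represent 34 genes of the 22180 on the table, and 3 of the 34 had more than 1 such probe set. The choice used no measured value of these arrays, although it was made with earlier results of the series known.

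Secretory proteins are recognised by SRP as their signal peptide leaves the ribosome, handed to the SRP receptor on the ER membrane and threaded through the Sec61 channel. Signal peptidase removes the signal peptide on the lumenal side, and the oligosaccharyltransferase moves a preassembled glycan from dolichol onto asparagine residues of the growing chain. β cells pass large amounts of preproinsulin through this route, and Sel1L acts at its other end, as the adaptor of the HRD1 ubiquitin ligase in ER-associated degradation (ERAD), which returns misfolded proteins to the cytosol. The series asked what loss of Sel1L in β cells does to β-cell identity, with TGF-β signalling named in its title.

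Affymetrix arrays measured total RNA of pancreatic islets from C57BL/6J mice aged 5 weeks, with 3 arrays per genotype. The Sel1L-deficient mice carried floxed Sel1L alleles and the Ins1Cre allele, a Cre gene placed in the Ins1 locus that is active in β cells, and the animals labelled wildtype were their Sel1L f/f littermates, for which the labels list no Cre. Floxed alleles were thus shared by both groups, and the changed Ins1 locus came with the deficient group only. Islets also hold α, δ, endothelial and other cells in which Ins1Cre is not active, and the labels do not say how many animals each array represents. In such bulk samples fewer cells of a type and less RNA per cell cannot be told apart.

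Values are log2 summaries made with RMA by the authors, and array medians lay between 3.08 and 3.16. Sel1l, the targeted gene, averaged 7.69 ± 0.04 in Sel1L-deficient and 8.59 ± 0.15 in wildtype islets (SD, n = 3 each), a log2 difference of -0.90 ± 0.11 (SE, limma adjusted p = 0.0312). Every array went with its genotype label, but the call was lost in each of the 6 fits that left out 1 array (limma adjusted p from 0.0829 to 0.14). It was also lost with the replicate number as a block (limma adjusted p = 0.0559). All samples are labelled female, yet Xist read 3.08 on Sel1L-deficient replicate 3 and 2.93 on wildtype replicate 3, against 9.93 to 10.38 on the other 4 arrays, and the Y-linked Uty read 7.04 and 7.18 on those 2 arrays. Results are therefore also given without both replicate 3 arrays, and the difference of Sel1l was then -0.82 (limma adjusted p = 0.196). All 9 measured β-cell markers stood above the array medians on every array. All 8 endothelial and 8 of the 10 acinar markers did too, so this check does not single out islets.

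The ER entry and N-glycosylation genes differed little between genotypes. Of the 34 members, 0 rose and 0 fell past an adjusted p of 0.05 in limma, against 0.0902% of all genes higher and 0.153% lower by that threshold. On the brightest probe sets with all 6 arrays, 1 member (Srpr) had an unadjusted limma p under 0.05. That level was reached by 9.48% of all genes. The member count was 3 with a trended and robust prior, and 0 to 3 when 1 array was left out. The median difference over the members was -0.04 on the log2 scale, beside 0.00044 over all genes, and the median size of a difference was 0.08, beside 0.11 over all genes. In size, 19 members differed by less than 0.1, 11 by 0.1 to 0.2, and 4 by more than 0.2.

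The intervals were narrow enough to bound the measured differences in array values of whole islets, each gene taken by itself. They do not bound a change in β cells alone, since islets also hold cells in which Ins1Cre is not active. On the brightest probe set of each gene, the 95% interval of the difference lay inside 1.5-fold in either direction (0.58 on the log2 scale) for all 34 members, which was so for 79.3% of all genes. Of the 37 probe sets taken one by one 36 had such an interval, and the exception was the dimmer probe set of Spcs2, with an interval from -0.79 to 0.27. The lowest interval bound was -0.56 for Sec61b, whose values were little above the array medians, and the highest 0.56 for Srp19. Without both replicate 3 arrays 27 of the 34 intervals still lay inside 1.5-fold. The 1.5-fold bound was chosen after the values had been seen, and RMA can draw ratios toward 1, so true ratios may be larger than those measured. By comparison, 2 of the 9 β-cell markers had such an interval.

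**Figure D1:**
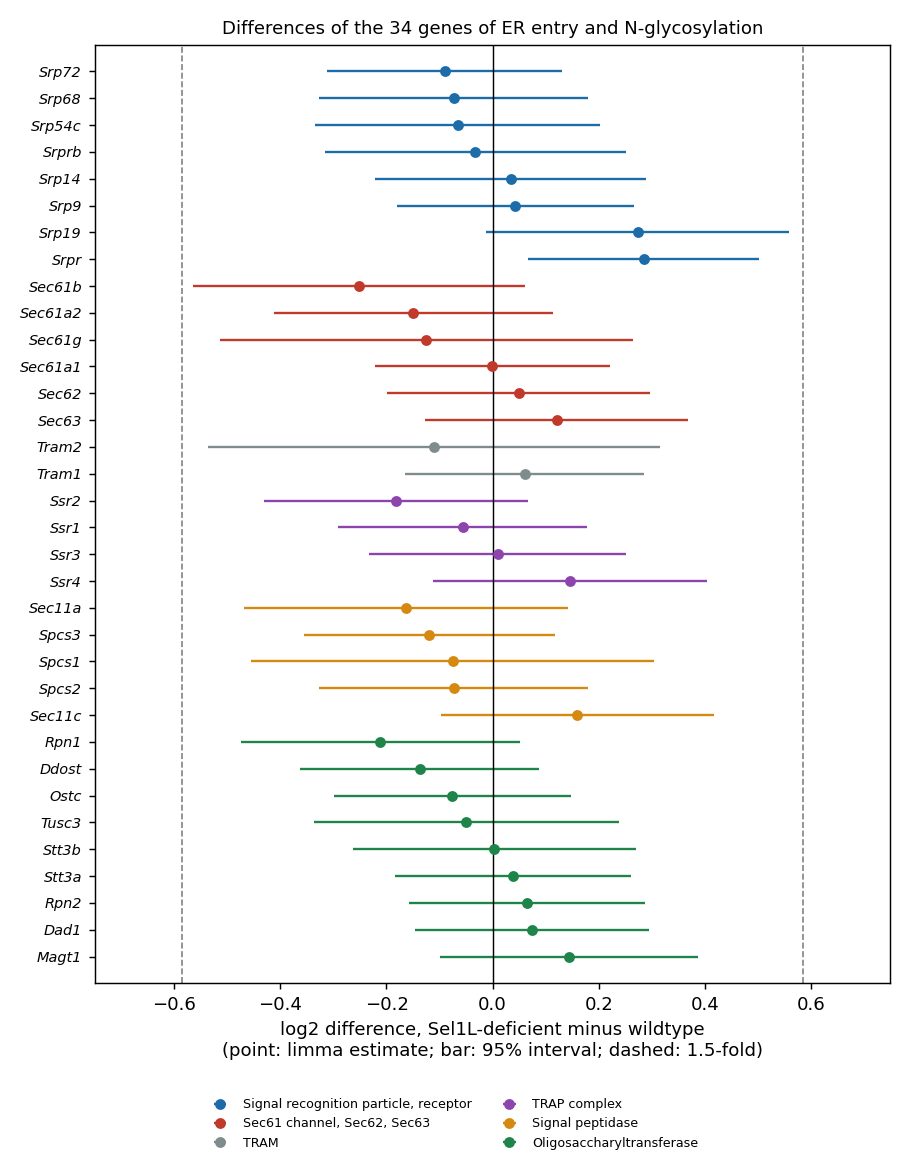
Log2 difference (Sel1L-deficient minus wildtype, horizontal axis) of the 34 genes, grouped and coloured by role; points are limma estimates, bars are 95% intervals and dashed lines mark 1.5-fold. All bars lie between the dashed lines, and only the bar of Srpr, from 0.07 to 0.50, does not cross 0.

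Promoter windows were searched for the motifs through which ER stress factors act on chaperone genes of the same compartment. The ER stress response element, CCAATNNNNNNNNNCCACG, is bound by the stress factor ATF6 together with NF-Y, and was searched on both strands of the 300 bases from 250 before to 50 after the start of each gene (RefSeq, GRCm38.p6). Of the 34 members 25 had such a window, and 0 of the 25 held the element. It was found in 5 of the 9 lumenal chaperone genes with a window (Hspa5, Calr, Canx, Dnajc3 and Pdia6), in 1 of 24 dolichol pathway genes, Alg12, and in 37 of 27025 genes in all, or 0.137%. Its parts occur alone more often: CCACG was present in 16 of the 25 members (64%) and in 35.5% of all genes, and CCAAT in 14 of the 25 (56%) and in 41.1% of all. The element TGACGTGG, bound by XBP1, was in 0 of the 25 members, 0 of the 9 chaperone genes and 0.714% of all genes. A missing match says only that these letters are not in the window. Shown are the windows of Srpr, the member with the smallest p, at chr9:35210953-35211252, of Rpn1 at chr6:88084223-88084522 and Ddost at chr4:138304488-138304787, members with differences below 0, and of Hspa5, the gene of the chaperone BiP, at chr2:34771840-34772139, all on the plus strand. Rpn1 and Ddost were picked by name and not by rank. All 3 member windows shown hold both CCACG and CCAAT, which many other member windows do not. Capitals mark CCACG and CCAAT on either strand in the 3 members, and the complete ER stress response element in Hspa5.
Srpr: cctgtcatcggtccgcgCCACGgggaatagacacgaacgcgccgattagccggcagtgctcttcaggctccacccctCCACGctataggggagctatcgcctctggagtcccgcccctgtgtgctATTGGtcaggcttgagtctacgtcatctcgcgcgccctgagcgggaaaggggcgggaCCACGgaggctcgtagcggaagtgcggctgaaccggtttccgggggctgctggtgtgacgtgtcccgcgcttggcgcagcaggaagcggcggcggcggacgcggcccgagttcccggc
Rpn1: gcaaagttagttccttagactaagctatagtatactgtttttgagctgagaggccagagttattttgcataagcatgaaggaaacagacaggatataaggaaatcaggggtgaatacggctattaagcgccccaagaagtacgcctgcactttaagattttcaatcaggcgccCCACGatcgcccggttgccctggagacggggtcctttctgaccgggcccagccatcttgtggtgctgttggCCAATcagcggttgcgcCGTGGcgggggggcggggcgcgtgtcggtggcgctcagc
Ddost: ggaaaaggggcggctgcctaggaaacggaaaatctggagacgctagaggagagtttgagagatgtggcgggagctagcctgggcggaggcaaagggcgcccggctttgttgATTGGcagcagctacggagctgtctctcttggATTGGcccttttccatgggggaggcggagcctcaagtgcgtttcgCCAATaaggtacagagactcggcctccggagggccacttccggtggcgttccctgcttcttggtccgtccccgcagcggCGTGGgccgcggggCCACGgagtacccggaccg
Hspa5: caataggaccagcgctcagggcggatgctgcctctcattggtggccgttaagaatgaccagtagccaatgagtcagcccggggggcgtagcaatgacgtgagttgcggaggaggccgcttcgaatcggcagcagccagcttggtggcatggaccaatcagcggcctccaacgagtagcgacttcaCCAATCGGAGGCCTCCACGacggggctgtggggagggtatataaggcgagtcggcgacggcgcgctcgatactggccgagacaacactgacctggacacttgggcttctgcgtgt

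Hspa5, whose window holds the element, averaged 8.83 in Sel1L-deficient and 8.80 in wildtype islets, a log2 difference of 0.02 with a 95% interval from -0.26 to 0.31. Among the other chaperone genes with the element, Dnajc3, which encodes the co-chaperone p58IPK, had the largest difference. It was 0.34 (95% interval from 0.06 to 0.62, limma adjusted p = 0.422), and all 3 Sel1L-deficient arrays were higher than any wildtype array. Over all genes 7.22% were separated in that direction. Pdia6 differed by -0.01. The chaperone genes with the element and the members without it were both without a call. Calls were rare in any case, at 0.0902% of all genes higher and 0.153% lower, and the role of the element was not tested.

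On the brightest probe set of each gene and with all 6 arrays, the largest difference among the members was that of an SRP receptor subunit. Larger ones were measured otherwise, among them 0.32 on the other probe set of Sec61b and -0.34 for Rpn1 without both replicate 3 arrays. Srpr encodes the receptor's α subunit, the GTPase that docks SRP at the ER. It read 10.65, 10.64 and 10.63 on the Sel1L-deficient arrays and 10.31, 10.42 and 10.34 on the wildtype arrays. All 3 Sel1L-deficient values were higher than any wildtype value and lay close together. The difference was 0.29 ± 0.10 (SE), a 1.22-fold higher level, with a limma adjusted p = 0.387 over all genes. Under the alternatives it stayed between 0.26 and 0.32, and its smallest adjusted p was 0.0658, with a trended and robust prior in limma. Srprb, the membrane-anchored β subunit that holds Srpr at the ER, differed by -0.03, with an interval from -0.32 to 0.25.

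For 5 members the values of the genotypes did not overlap: Srpr, Srp19 and Dad1 (3 genes) were higher and Ddost and Srp72 (2 genes) lower throughout the Sel1L-deficient arrays. Over all genes such separation was seen for 7.22% in the higher and 7.84% in the lower direction, so the members' counts were near the background. Srp19, which prepares the SRP RNA for binding of the signal-sequence subunit, read 5.29, 5.56 and 5.41 in Sel1L-deficient and 5.20, 4.97 and 5.27 in wildtype islets. The gap between Sel1L-deficient replicate 1 and wildtype replicate 3 was small, and the difference of 0.27 ± 0.12 (SE) had a limma adjusted p = 0.549. Srp72, which with Srp68 forms the large protein pair of SRP, read 9.29, 9.25 and 9.24 in Sel1L-deficient and 9.42, 9.30 and 9.32 in wildtype islets. Its difference was -0.09, and that of Srp68 was -0.07.

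The other SRP subunits lay close to 0. Srp9 and Srp14, the pair that slows elongation while the ribosome is brought to the membrane, differed by 0.04 and 0.03. Srp54c, a mouse copy of the signal-sequence-binding GTPase, differed by -0.07 on its own probe set. Near-identical copies of this gene exist, so its reading is uncertain: 2 brighter probe sets that carry the symbols Srp54a, Srp54b and Srp54c together differed by 0.19 each, with wildtype replicate 1 at 10.00 and 10.03, below the other 5 arrays. In the 8 genes of SRP and its receptor 4 differences were above 0 and 4 below, with a median of 0.00095. This tally was not stable. The signs of Srp14, Srp54c, Srp68 and Srprb each changed in at least 1 of 15 refits with another processing or with arrays left out.

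**Figure D2:**
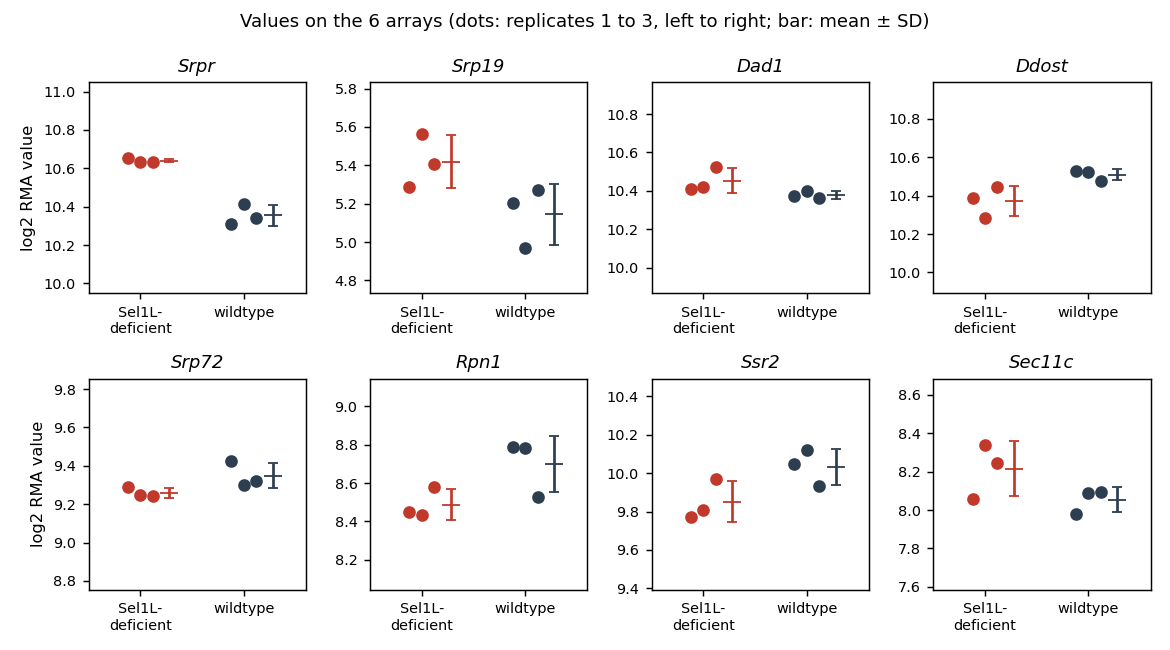
Log2 RMA values (vertical axis, each panel spanning the same range) of 8 members on the 6 arrays; dots are replicates 1 to 3 from left to right and bars are mean ± SD of 3 arrays. Srpr, Srp19 and Dad1 are higher on all Sel1L-deficient arrays, Ddost and Srp72 lower, and Rpn1, Ssr2 and Sec11c overlap between genotypes.

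The Sec61 channel showed no common direction. Sec61a1 encodes the pore, and its values were 10.28, 10.24 and 10.27 in Sel1L-deficient and 10.23, 10.34 and 10.21 in wildtype islets. The groups overlapped and the means of 10.26 and 10.26 were nearly equal (difference -0.00038, 95% interval from -0.22 to 0.22). Sec61a2, the gene of another pore protein, read 5.66, 5.60 and 5.56 in Sel1L-deficient and 5.57, 5.88 and 5.82 in wildtype islets. Wildtype replicate 1 lay among the Sel1L-deficient values, and the difference of -0.15 had a limma adjusted p = 0.756.

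The small channel subunits were measured less well. Sec61b, a tail-anchored subunit, read 3.29, 3.65 and 3.50 in Sel1L-deficient and 3.59, 3.68 and 3.93 in wildtype islets on its brighter probe set. These values are little above the array medians and the groups overlapped. The difference was -0.25 on this probe set, while the other gave 0.32 with all 3 Sel1L-deficient arrays higher, so the direction for Sec61b depends on the probe set. The interval on the other probe set ran from 0.05 to 0.58. Sec61g, the other tail-anchored subunit, had a low reading of 6.86 on Sel1L-deficient replicate 1, beside 7.31 to 7.52 on the other 5 arrays. Its difference was -0.12 over all arrays and 0.07 without that replicate.

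Sec62 and Sec63 help chains with weak signals to enter the channel, and Sec63 recruits BiP through its J domain. Sec63 read 8.20, 8.07 and 8.27 in Sel1L-deficient and 7.99, 8.16 and 8.02 in wildtype islets. The groups overlapped at wildtype replicate 2, and the difference was 0.12 (95% interval from -0.13 to 0.37). Sec62 differed by 0.05. The TRAM proteins contact nascent chains beside the channel: Tram1 read 10.36, 10.41 and 10.47 in Sel1L-deficient and 10.31, 10.42 and 10.34 in wildtype islets, a difference of 0.06 with overlapping groups. Its relative Tram2 varied more within genotypes, from 5.37 to 5.83 in Sel1L-deficient and from 5.36 to 5.98 in wildtype islets, and differed by -0.11.

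The TRAP complex sits beside Sec61 and supports preproinsulin entry, as is known from a rat β-cell line. Ssr2, its β subunit, read 9.77, 9.81 and 9.97 in Sel1L-deficient and 10.05, 10.12 and 9.93 in wildtype islets. Sel1L-deficient replicate 3 lay above wildtype replicate 3 and the groups overlapped. The difference was -0.18 ± 0.11 (SE, limma adjusted p = 0.68), and -0.29 without both replicate 3 arrays. Ssr4, the δ subunit, read 8.01, 8.21 and 8.16 in Sel1L-deficient and 7.89, 8.12 and 7.93 in wildtype islets, an overlap with a difference of 0.15. Ssr1, the α subunit, differed by -0.06 on its brighter and 0.19 on its other probe set, and Ssr3, the γ subunit, by 0.01. On the brightest probe sets 2 of the 4 subunits had differences above 0 and 2 below. This tally was not stable: Ssr1 stood at 0.06 with the mean of its probe sets, and the sign of Ssr3 changed in 4 of 15 refits with another processing or with arrays left out.

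Signal peptidase has alternative catalytic subunits, Sec11a and Sec11c, whose differences had opposite signs without passing the test. Sec11a read 6.85, 6.84 and 6.73 in Sel1L-deficient and 7.22, 6.76 and 6.93 in wildtype islets. Its spread came mostly from wildtype replicate 1, without which the difference of -0.16 became -0.04. Sec11c read 8.06, 8.34 and 8.25 in Sel1L-deficient and 7.98, 8.09 and 8.09 in wildtype islets. Here Sel1L-deficient replicate 1 lay below 2 wildtype values, and the difference was 0.16 (limma adjusted p = 0.733), or 0.10 without Sel1L-deficient replicate 2.

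The accessory subunits of signal peptidase all had differences below 0 with all 6 arrays, with no call, and that of Spcs1 did not keep its sign when single arrays were left out. Spcs3, required for the activity of the enzyme, read 8.90, 8.94 and 8.91 in Sel1L-deficient and 9.16, 9.03 and 8.93 in wildtype islets, an overlap at wildtype replicate 3 with a difference of -0.12, or -0.06 without wildtype replicate 1. Spcs1 and Spcs2 differed by -0.08 and -0.07, and the other probe set of Spcs2 by -0.26. Without Sel1L-deficient replicate 1 the difference of Spcs2 was -0.00013. Spcs1 stood higher on replicate 3 of both genotypes, at 7.85 in Sel1L-deficient and 7.75 in wildtype islets, than on the other 4 arrays, which read 7.31 to 7.54. Its difference was -0.25 without Sel1L-deficient replicate 3. It turned positive without Sel1L-deficient replicate 1 (0.02), Sel1L-deficient replicate 2 (0.0072) or wildtype replicate 3 (0.01).

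The oligosaccharyltransferase exists in forms with the catalytic subunit Stt3a, which works on chains still in the channel, or Stt3b, which glycosylates sites that were passed over. Stt3a differed by 0.04 and Stt3b by 0.0034, with intervals from -0.18 to 0.26 and from -0.26 to 0.27. Ostc, which joins the Stt3a form to the translocon, differed by -0.08. The thiol oxidoreductases Magt1 and Tusc3 are alternative subunits of the Stt3b form. Magt1 read 8.50, 8.56 and 8.52 in Sel1L-deficient and 8.38, 8.51 and 8.26 in wildtype islets, overlapping at wildtype replicate 2, with a difference of 0.14, or 0.08 without wildtype replicate 3. Tusc3 differed by -0.05.

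The subunits shared by both forms had differences of either sign, none with a call. Rpn1, ribophorin I, read 8.45, 8.43 and 8.58 in Sel1L-deficient and 8.79, 8.78 and 8.53 in wildtype islets. Replicate 3 of each genotype lay between the other arrays. The difference was -0.21 ± 0.11 (SE, limma adjusted p = 0.634), and -0.34 without both replicate 3 arrays. Ddost, which encodes the OST48 subunit, read 10.39, 10.29 and 10.44 in Sel1L-deficient and 10.53, 10.52 and 10.48 in wildtype islets. All Sel1L-deficient values were lower, by 0.14 on average (95% interval from -0.36 to 0.09, limma adjusted p = 0.74).

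Dad1, a small subunit named for the cell death that follows its loss, read 10.41, 10.42 and 10.53 in Sel1L-deficient and 10.37, 10.40 and 10.36 in wildtype islets. The groups were just apart, with a difference of 0.07. Rpn2, ribophorin II, read 8.67, 8.68 and 8.63 in Sel1L-deficient and 8.65, 8.62 and 8.52 in wildtype islets, which overlapped at a difference of 0.06. Of the 9 oligosaccharyltransferase genes 5 differences were above 0 and 4 below, with a median of 0.0034. The signs of Stt3a, Stt3b and Tusc3 each changed in at least 1 of the 15 refits, so this tally was not stable either.

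Partner and paralog genes were set against each other within each array in 9 pairs, chosen after the values had been seen. Levels of different probe sets are not on one scale, so only the change of a pair's log2 ratio between genotypes is meaningful. Against Rpn1, Rpn2 was higher by 0.28 in Sel1L-deficient islets, and against Srprb, Srpr was higher by 0.32, each with all 3 Sel1L-deficient ratios above the wildtype ones. Both had an exact two-sided permutation p = 0.1, the smallest that 3 against 3 arrays allow, and p = 0.45 adjusted over the pairs. The ratio of Sec11c to Sec11a was 0.32 higher but overlapped (exact permutation p = 0.2, adjusted 0.6). The other 6 pairs, among them Stt3a with Stt3b (0.04) and Srp9 with Srp14 (0.0082), overlapped between genotypes.

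**Figure D3:**
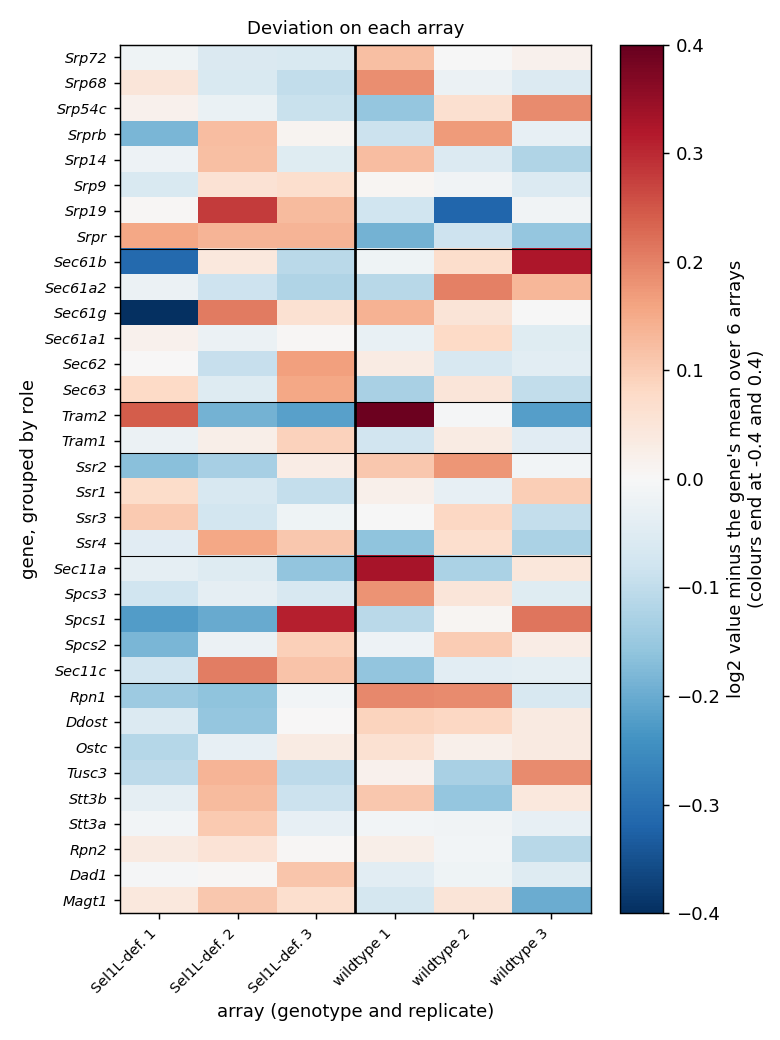
Deviation of each of the 34 genes (rows, grouped by role) from its own mean on the 6 arrays (columns, Sel1L-deficient at left), in log2 units; colours end at -0.4 and 0.4. No role group changes colour as a block between the genotypes, and single dark cells mark Sec61g on Sel1L-deficient replicate 1 and Tram2 on wildtype replicate 1.

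The members were also steady within genotypes. Their median SD over 3 arrays was 0.09 in Sel1L-deficient and 0.10 in wildtype islets, beside 0.13 in both genotypes for the brighter genes of the table, those with a mean above the median gene. By another measure, the SE of a difference, which limma draws toward a common value, this was not particular to the members. The median SE was 0.11 for them and 0.11 for the lumenal chaperones. It was 0.13 for the ER membrane complex. Taken array by array, the median deviation of the members from their own means lay between -0.02 and 0.01 on the Sel1L-deficient arrays and between -0.04 and 0.01 on the wildtype arrays. All 34 members stood above the array median on all 6 arrays.

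Genes that work beside the members were likewise without calls. Over all genes only 0.0902% were called higher and 0.153% lower. Counts of 0 in short lists, such as these and those below, were therefore near the background. The ER membrane complex, which inserts some membrane proteins, had 0 of 10 genes that rose and 0 that fell (median -0.09), and its 2 brightest genes, Emc2 and Emc7, differed by -0.11 each. The partners of Sec61 for multipass proteins had 0 of 5 in either direction (median -0.20), with Nomo1 at -0.25 and Tmem147 at -0.32. Nomo1 was lower on all 3 Sel1L-deficient arrays, as were 7.84% of all genes. The pathway for tail-anchored proteins had 0 of 6 in either direction (median -0.08), with Bag6 at -0.0039 and Sgta at -0.09. Of 4 signal peptide peptidase genes 0 rose and 0 fell (median 0.05), with H13, also known as Hm13, at 0.14 and Sppl2a at 0.02.

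Among the suppliers and readers of the N-glycan, 0 of 28 genes of dolichol-linked oligosaccharide synthesis rose and 0 fell (median 0.00021), and the 2 brightest, Gfpt1 and Gmppa, differed by 0.0016 and 0.02. The small oligosaccharyltransferase subunits outside the naming rule had 0 of 3 in either direction, with Ost4 at 0.11 and Krtcap2 at -0.06. N-glycan trimming and the calnexin cycle had 0 of 7 in either direction (median -0.0039), with the cargo lectin Lman1 at -0.0039 and the folding sensor Uggt1 at 0.19. Lumenal chaperones of translocation had 0 of 11 in either direction (median 0.02), with Pdia3 at 0.08 and the lectin chaperone Canx at 0.11.

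**Figure D4:**
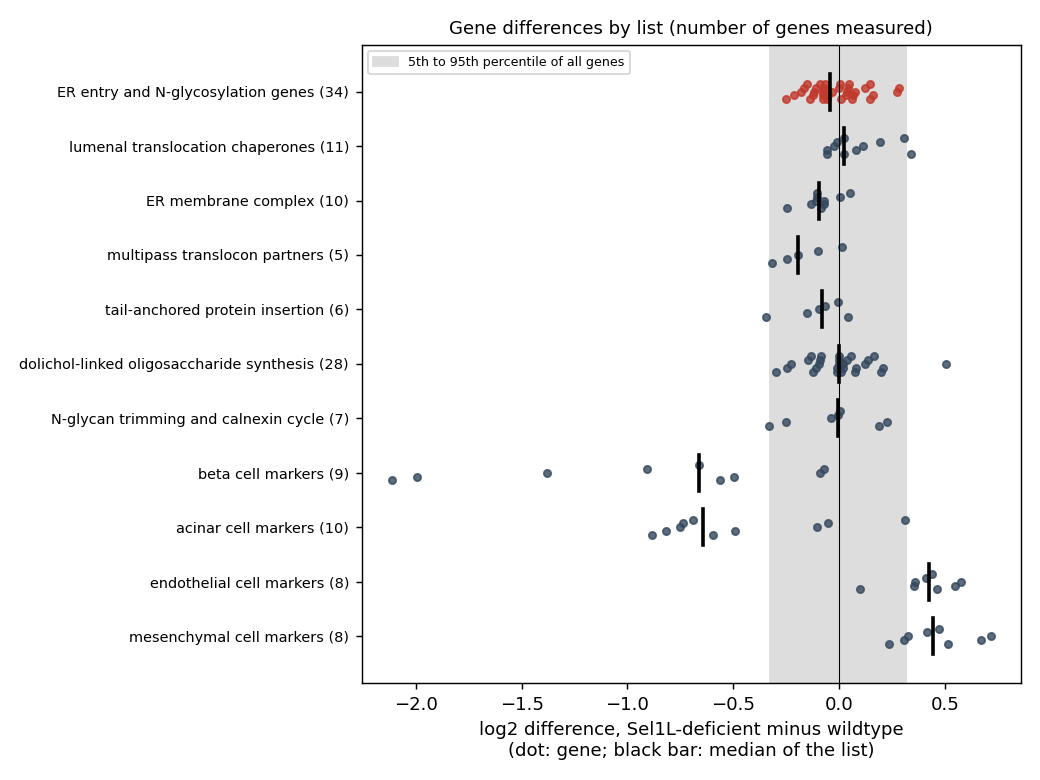
Log2 differences (Sel1L-deficient minus wildtype, horizontal axis) of the genes of 11 lists; dots are genes, black bars are list medians and the grey band spans the 5th to 95th percentile of all genes, -0.33 to 0.32. All 34 ER entry and N-glycosylation genes fall inside the band, whereas the lists of β-cell, acinar, endothelial and mesenchymal markers have medians of -0.66, -0.64, 0.43 and 0.44.

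Among the marker lists of cell types, only the β-cell list held calls between genotypes in the fit of all 6 arrays. Of the 9 β-cell markers 4 fell and 0 rose (Mafa, Ucn3, Slc2a2 and G6pc2). The sum of the linear RMA values of all 9 was 8875 to 9200 in Sel1L-deficient and 11710 to 13490 in wildtype islets. All 9 were lower on every Sel1L-deficient array than on any wildtype array. Such separation in that direction was seen for 7.84% of all genes. Calls over all genes numbered 54 with all 6 arrays, 4 to 29 with 1 left out and 1 without both replicate 3 arrays. Fits with fewer arrays also kept fewer of the 4 β-cell calls, and 0 were left without both replicate 3 arrays. With 1 array left out, 3 were left without Sel1L-deficient replicate 3, 2 (Mafa and Ucn3) without wildtype replicate 2, and 1 (Mafa) without any 1 of the other 4 arrays. All 8 endothelial markers had differences above 0, with 0 calls and sums of 1336 to 1526 in Sel1L-deficient and 921 to 1222 in wildtype islets. Kdr and Emcn differed by 0.55 and 0.36. All 8 mesenchymal markers did too, with 0 calls and sums of 429 to 483 in Sel1L-deficient and 276 to 379 in wildtype islets, and Rgs5 and Pdgfrb differed by 0.72 and 0.24.

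Acinar cells, which also carry a large ER, left transcripts on every array. Of the 10 acinar markers 8 stood above and 2, Rbpjl and Ptf1a, below the array median on all arrays, with 0 calls. Their summed linear RMA values were 2924, 2124 and 8274 in Sel1L-deficient and 5209, 3484 and 9025 in wildtype islets, highest on replicate 3 of each genotype. Ctrb1 and Cpa1 had the highest means of the list and differed by -0.49 and -0.75.

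The other marker lists were without calls. The 3 α-cell and 5 δ- and PP-cell markers had medians of 0.17 and 0.14, with Gcg at 0.03, Ttr at 0.17, Sst at -0.03 and Pyy at 0.25. Duct markers (5) and leukocyte markers (6) had medians of -0.12 each, with Krt7 at -0.12, Muc1 at -0.20, Cd68 at -0.02 and Lyz2 at -0.31. Of the 4 plasma-cell markers, 3 lay below the array median on all arrays, and Sdc1 and Mzb1 differed by -0.04 and -0.0088. What part these shifts in cell markers had in the values of the ER entry genes was not tested.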

How the data were processed

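Islet RNA from 6 samples, 3 Sel1L-deficient and 3 wildtype, was measured on Affymetrix arrays. The deposited table holds RMA summaries for 41345 probe sets, per the submitters' processing notes, which give neither version nor filters. These deposited values were read as log2, since all lay between 0.526 and 13.0. The table has no detection calls, and the number of arrays limits the precision.

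Names came from the platform annotation, which can be old: 23521 probe sets had 1 symbol, 1814 several, and 16010 were unnamed here. Each gene was its probe set with the highest mean, giving 22180 genes. Sel1L-deficient minus wildtype differences were fitted with limma 3.58.1 in R 4.3.3 and adjusted by Benjamini-Hochberg over all genes, two-sided, at a threshold of 0.05; intervals are 95%. The fit was tested on simulated data.

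Members and lists were chosen with earlier results of these data known. Array values are given for the 8 members with the smallest p in each direction and the brightest member of each role; other lists are shown by called genes or their 2 brightest, and other genes were named after their values were seen. Camlg and Hm13 were matched through RefSeq synonyms. Replicates are separately titled samples, so p-values measure the spread between samples, which may be technical. Alternatives changed the prior, filter, scaling, probe sets, array weights, replicate block, an Xist covariate and the arrays included.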

Additional observations from a re-analysis of the deposited data

How the results depend on the processing

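Under all alternatives run (15 refits, and the probe sets taken one by one) 0 members rose and 0 fell, and the smallest adjusted p of any member was 0.0658. Of the 34 members, 19 kept the sign of their difference in the 15 refits and 15 changed it in at least 1, none with a call. The number of members with a 95% interval inside 1.5-fold, an alternative count chosen after seeing the data, was 33 with a trended and robust prior, with median centring and with the replicate block, 27 without both replicate 3 arrays and 31 to 32 when 1 array was left out. The median member difference of -0.04 was -0.014 after a repeated quantile normalization and 0.0015 with the mean of a gene's probe sets, and -0.046 to 0.0088 when 1 array was left out; these lie within a few hundredths of 0, and the cause of the shifts was not tested. The difference of Sel1l lost its call with the replicate block (-0.90, adjusted p = 0.0559), without both replicate 3 arrays (-0.82, adjusted p = 0.196) and when 1 array was left out (-0.97 to -0.82), with fewer arrays or residual degrees of freedom in each of these fits. Calls over all genes numbered 54, against 133 with the trended and robust prior, 36 with the replicate block, 1 without both replicate 3 arrays and 4 to 29 with 1 array left out. Deviations of same-numbered arrays correlated at 0.10, 0.07 and 0.21, and each array correlated best with its own number, a hint from the data only; the numbers were not taken as pairs. The replicate block gave 0 members in either direction. With 3 arrays per genotype, differences of the size seen in the members could not be told from 0 one by one.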

Other observations

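Outside the 34 genes, the neighbouring gene of the same routes with the smallest p was Uap1, an enzyme that makes the activated sugar UDP-GlcNAc used at the first step of dolichol-linked glycan synthesis. It averaged 6.64 in Sel1L-deficient and 6.13 in wildtype islets, a log2 difference of 0.51 with a 95% interval from 0.24 to 0.77. All 3 Sel1L-deficient arrays were higher than any wildtype array, as they were for 7.22% of all genes, and the limma adjusted p over all genes was 0.208. Gmppb, which makes the GDP-mannose used for the later sugars, averaged 5.43 in Sel1L-deficient and 5.73 in wildtype islets and differed by -0.30 (limma adjusted p = 0.454). Both were singled out after their values had been seen.

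Get3, the ATPase that carries tail-anchored proteins to the ER, averaged 6.71 in Sel1L-deficient and 7.05 in wildtype islets, a difference of -0.34 with all Sel1L-deficient arrays lower (limma adjusted p = 0.475). Ngly1, the cytosolic enzyme that strips N-glycans from proteins retrieved from the ER, differed by 0.23 with all Sel1L-deficient arrays higher (limma adjusted p = 0.516). Such separation was seen for 7.84% of all genes in the lower and 7.22% in the higher direction. Get3 and Ngly1 were also singled out after their values had been seen, and none of the 4 genes passed the threshold.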
